A study of Saccharomyces cerevisiae with 10 samples.

Results

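The cyclins described here are the 9 genes of Saccharomyces cerevisiae that pair with the cell cycle kinase Cdc28. They were taken by systematic name from a table of 6292 open reading frames, and all 9 were in the table with matching RefSeq symbols. They comprise the G1 cyclins CLN1 (YMR199W), CLN2 (YPL256C) and CLN3 (YAL040C), the S-phase cyclins CLB5 (YPR120C) and CLB6 (YGR109C), and the mitotic cyclins CLB1 (YGR108W), CLB2 (YPR119W), CLB3 (YDL155W) and CLB4 (YLR210W). Per the labels, wild-type diploid cells in the yeast form were grown in SHAD liquid, which has ample glucose and ammonium, and then placed on SLAD agar, which is low in ammonium and on which diploids form filaments. On each of 10 two-colour arrays, 1 for each hour from 1 to 10, RNA of filamentous-form cells was hybridised together with RNA of yeast-form cells. Growth form, ammonium supply and liquid or solid medium changed together and cannot be told apart in this design.

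Cyclins are the unstable subunits that switch Cdc28 on and steer it to its substrates. In a budding cell Cln3 acts first and releases the transcription factors SBF and MBF, which turn on CLN1, CLN2, CLB5 and CLB6. Cln1 and Cln2 drive bud emergence and polarised growth, Clb5 and Clb6 start DNA replication, Clb3 and Clb4 act in spindle formation, and Clb1 and Clb2 drive mitosis and end polarised growth of the bud. Filaments are chains of long cells, and in this species elongation has been tied to prolonged polarised growth, with Cln1 and Cln2 favouring it and Clb2 opposing it.

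Values are log2 ratios, written as filamentous over yeast form after each array was centred on its median. The labels do not state this direction, which rests on the order of their channels and is only likely. Turning it would turn the sign of every value. Values within 1e-06 of 0, which were 5.28% of the table, were read as zeros and taken as missing. Of the cyclins 7 had a value at all 10 hours, while CLB2 lacked hour 6 and CLB3 lacked hour 8. Each hour had a single array, separate cultures for the hours are not named in the labels, and 10 arrays limit the precision. The p-values of limma therefore measure scatter of single arrays about a smooth curve over the hours, which may be technical. They also treat the hours as independent. The SDs given beside them are over the hours and include any trend. Across genes, arrays of 2 odd or 2 even hours resembled each other more (mean Pearson's r of 0.59) than an odd and an even hour did (0.43), and the means over both sets are given for each cyclin. The array medians lay between 0.12 and 0.39 before centring, so that a gene is called higher or lower relative to the typical gene of its array.

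Over the 10 hours as a whole, CLN1 and CLB1 were higher and CLN3 was lower in filamentous-form cells, and the other 6 cyclins did not pass. The log2 ratio of CLN1 averaged 0.87 ± 1.09 over the hours (SD, n = 10), a 1.83-fold difference, with an adjusted p of 0.020 in limma. CLB1 had a mean of 0.33 ± 0.26 (n = 10, 1.25-fold), with an adjusted p of 0.036 in limma. CLN3 had a mean of -0.59 ± 0.38 (n = 10), with an adjusted p of 0.0013 in limma. With 3 of 9 called, the cyclins did not exceed the background, since 45% of all 5775 genes tested passed in either direction, 22.6% higher and 22.4% lower. In a mixed population a ratio cannot tell fewer cells in a cycle stage from less RNA per cell.

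CLN1, the G1 cyclin with the largest mean, was lowest at hours 1 and 2 and highest at hours 5, 6 and 10. Its log2 ratio was -0.19, -0.86, 0.29, 0.74, 1.92, 2.60, 0.76, 1.36, 0.10 and 2.01 at hours 1 to 10. It lay below the array median at hours 1 and 2 and above it at the 8 later hours, and its peak at hour 6 was a 6.07-fold ratio that exceeded 97.3% of the genes measured on that array (with the ratio turned, it would be a trough below 97.3% of them). Hours 5, 6 and 10 stood apart from the rest, and at hour 9 the ratio was close to that of the typical gene. The call was lost without hour 5 or without hour 6 (adjusted p = 0.053 in limma for each) and with odd hours alone (adjusted p = 0.13 in limma), where the mean was 0.58 against 1.17 over even hours.

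CLN2, the duplicate of CLN1, did not pass. Its values were -0.81, -0.07, 0.70, -0.11, -0.14, -0.12, 0.83, 0.88, -0.14 and 1.60 at hours 1 to 10, with a mean of 0.26 ± 0.71 (n = 10, adjusted p = 0.28 in limma). At hours 5 and 6, where CLN1 was near its highest, CLN2 was close to 0, and both genes were high at hour 10. Without hour 10 the mean of CLN2 was 0.11, and its means over odd and over even hours were 0.09 and 0.44. On the deposited scale, with no centring, it was 0.56 and passed (adjusted p = 0.030 in limma).

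CLN3, the upstream activator of the G1 programme, was low on nearly every array. Its values were -0.06, -0.56, -0.65, -0.94, -0.76, -1.11, -0.79, -0.29, -0.81 and 0.04 at hours 1 to 10, so that it lay below the array median at 9 of 10 hours. The lowest values fell at hours 4 to 7 and at hour 9, and the first and last hours were close to 0. CLN3 was the lowest of all measured cyclins at 5 hours, hours 3 to 7, and would be the highest there with the ratio turned. Its means over odd and over even hours were -0.61 and -0.57, and the call held with each of the 10 hours left out, with adjusted p-values from 0.0017 to 0.0064 in limma. On the deposited scale the mean was -0.30 and still passed (adjusted p = 0.048 in limma).

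**Figure D1:**
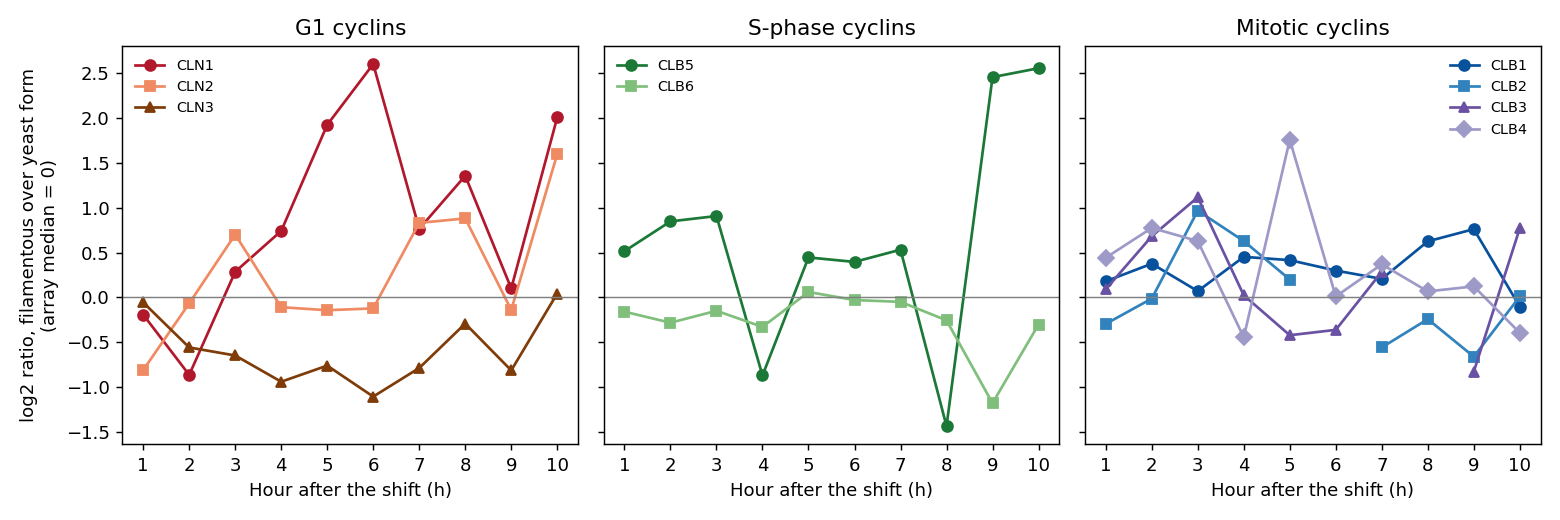
Log2 ratio of filamentous-form over yeast-form RNA (vertical axis, array median at 0) at hours 1 to 10 (horizontal axis), with 1 point for each array and a gap where a value is missing. CLN1 peaked at 2.60 at hour 6, CLN3 lay below 0 at 9 hours, CLB5 was at 2.45 and 2.55 at hours 9 and 10, and CLB4 had a single high value of 1.76 at hour 5.

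The S-phase cyclins differed most from each other at the last hours. CLB5, the main cyclin of replication origin firing, had log2 ratios of 0.51, 0.85, 0.91, -0.87, 0.45, 0.40, 0.53, -1.44, 2.45 and 2.55 at hours 1 to 10. It lay above the array median at 8 hours and below it at hours 4 and 8, and its values at hours 9 and 10 exceeded 95.8% and 97.2% of genes, or lay below those shares with the ratio turned. The mean was 0.63 ± 1.24 (n = 10) and did not pass (adjusted p = 0.12 in limma). Without hour 9 the mean was 0.43 and without hour 10 it was 0.42 (adjusted p = 0.30 and 0.35 in limma). Without both of these hours it was 0.17 (adjusted p = 0.65 in limma). Among the fits that left out 1 hour, CLB5 passed only without hour 8, at 0.86 (adjusted p = 0.0062 in limma). CLB5 also passed with odd hours alone, at 0.97 (adjusted p = 0.035 in limma), and on the deposited scale, at 0.93 (adjusted p = 0.022 in limma), while the mean of even hours was 0.30.

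CLB6, the earlier-acting S-phase cyclin, lay below the array median at 9 of 10 hours, and close to it except at hour 9. Its values were -0.16, -0.28, -0.15, -0.33, 0.06, -0.03, -0.05, -0.26, -1.18 and -0.30 at hours 1 to 10, with a mean of -0.27 ± 0.35 (n = 10, adjusted p = 0.10 in limma). Hour 9 stood alone as its lowest value, on the array where CLB5 was at 2.45. The means over odd and over even hours were -0.30 and -0.24. On the deposited scale the mean of CLB6 was 0.03, so its sign depends on the centring.

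Among the mitotic cyclins CLB1 varied least over the hours. CLB1 had log2 ratios of 0.18, 0.38, 0.07, 0.45, 0.42, 0.30, 0.21, 0.62, 0.76 and -0.10 at hours 1 to 10, above the array median at 9 of 10 hours. Its call was lost in 8 of the 10 fits that left out 1 hour, with means of 0.28 to 0.38 and adjusted p-values of 0.018 to 0.083 in limma over all 10 such fits. It was also lost with arrays centred on their mean (0.28, adjusted p = 0.069 in limma). Odd hours and even hours each gave a mean of 0.33, and neither set passed alone (adjusted p = 0.20 and 0.14 in limma).

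CLB2, the main mitotic cyclin, had values of -0.30, -0.01, 0.97, 0.63, 0.20, -0.56, -0.24, -0.66 and 0.01 at hours 1 to 5 and 7 to 10. It was highest at hours 3 and 4 and below the array median at hours 1, 2, 7, 8 and 9. The mean was 0.0037 ± 0.53 (n = 9), -0.07 over odd and 0.10 over even hours. Its mean was 0.30 over the first 5 hours and -0.36 over the last 5, but the linear change did not pass (adjusted p = 0.72 in limma).

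CLB3, which acts from late S phase to the assembly of the spindle, had values of 0.09, 0.68, 1.12, 0.02, -0.42, -0.36, 0.29, -0.83 and 0.77 at hours 1 to 7, 9 and 10. Like CLB2 it was highest at hour 3 and lowest at hour 9, and its mean of 0.15 ± 0.63 (n = 9, 0.05 over odd and 0.28 over even hours) did not pass (adjusted p = 0.65 in limma). Single arrays moved its fitted mean of 0.13 to 0.01 without hour 10, 0.02 without hour 3 and 0.27 without hour 9. CLB4, its duplicate, had values of 0.44, 0.77, 0.63, -0.45, 1.76, 0.01, 0.37, 0.07, 0.12 and -0.40 at hours 1 to 10. Its mean of 0.33 ± 0.64 (n = 10) did not pass (adjusted p = 0.19 in limma), and it did on the deposited scale, at 0.63 (adjusted p = 0.016 in limma). Without hour 5 the mean was 0.17, while odd hours averaged 0.66 and even hours 0.0020. At hour 5 CLB4 was at its highest and CLB3 was below the array median.

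**Figure D2:**
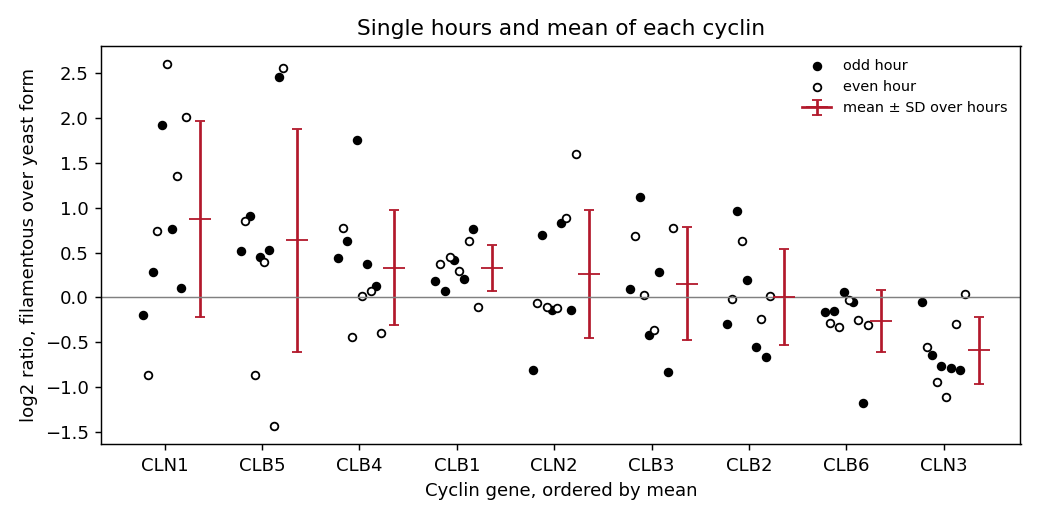
Log2 ratios of each cyclin at single hours (vertical axis, filled points for odd and open points for even hours) with the mean ± SD over hours beside them, for the 9 genes ordered by mean along the horizontal axis. The means ran from 0.87 for CLN1 to -0.59 for CLN3, and the points of CLN1 and CLB5 spread most widely.

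The order of the means was CLN1, CLB5, CLB4, CLB1, CLN2, CLB3, CLB2, CLB6 and CLN3, and it did not follow the cyclin classes. As 0 of 36 pairs of cyclins passed in the comparison below, this order is only a description. The mean of the class per hour, averaged over hours, was 0.18 ± 0.52 for the G1 cyclins, 0.18 ± 0.56 for the S-phase cyclins and 0.20 ± 0.26 for the mitotic cyclins (SD over 10 hours), given as descriptions with no test. These near-equal means hide members far apart in the order. CLN1 and CLN3 lay at its top and bottom, and CLB5 and CLB6 lay at its second and next to last places. Neither CLB5 nor CLB6 passed, nor did their difference (adjusted p = 0.196, exact permutation test). CLN1 and CLN2 together averaged 0.57 ± 0.75, with -0.50 and -0.47 at hours 1 and 2 and 1.24 and 1.80 at hours 6 and 10. The mitotic class was highest at hour 3, at 0.70, and lowest at hour 9, at -0.15. The G1 class was lowest at hour 2, at -0.50, and highest at hour 10, at 1.22, and the S-phase class ran between -0.85 at hour 8 and 1.13 at hour 10.

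To compare cyclins directly, the difference of their log2 ratios on the same arrays, in which the centring cancels, was tested for all 36 pairs with a two-sided exact permutation test over the signs of the arrays. This test treats the hours as independent. After Benjamini-Hochberg adjustment over the 36 pairs 0 passed, and 11 had an unadjusted p under 0.05. CLB1 exceeded CLB6 on 10 of 10 arrays, by 0.60 ± 0.53 (exact p = 0.0020, the smallest that 10 arrays can give, adjusted p = 0.0502). CLN3 was below CLB1 on 9 of 10 arrays, by a mean difference of -0.92 ± 0.54 (exact p = 0.0039, adjusted p = 0.0502). CLN3 was also below CLB4, CLB3 and CLB5 on all but 1 shared array, with mean differences of -0.92, -0.78 and -1.23 (adjusted p = 0.0502 each, exact permutation test). Within the G1 class, CLN1 exceeded CLN3 on 8 arrays by 1.46 ± 1.21 (n = 10) and CLN2 exceeded it on 9 arrays by 0.85 ± 0.69 (n = 10), with exact permutation p-values of 0.0078 and 0.0098 and an adjusted p of 0.0502 for each. Hour 10, where CLN3 had its highest and CLB1 its lowest value, was the only array on which CLN3 exceeded CLB1 or CLB4. Without it 3 pairs passed, namely CLN3 and CLB1, CLN3 and CLB4, and CLB1 and CLB6 (adjusted p = 0.047 each, exact permutation test). With all signs alike, each had the smallest exact p that 9 arrays can give, 0.0039. Leaving out any other single hour gave 0 pairs, so the run without hour 10 adds no support to these differences.

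The duplicate pairs were not separated at this number of arrays, which does not show that they behave alike. CLN1 exceeded CLN2 on 7 of 10 arrays, by 0.61 ± 1.07, with single differences from -0.80 to 2.72 (adjusted p = 0.23, exact permutation test), and by 0.38 without hour 6. CLB5 exceeded CLB6 on 8 of 10 arrays, by 0.90 ± 1.43, with differences from -1.18 to 3.63 (adjusted p = 0.196, exact permutation test), and by 0.60 without hour 9. CLB1 exceeded CLB2 on 6 of 9 arrays, by 0.33 ± 0.68 (adjusted p = 0.33, exact permutation test), and by 0.19 without hour 9. CLB3 exceeded CLB4 on 3 of 9 arrays, with a mean difference of -0.21 ± 0.96 (adjusted p = 0.68, exact permutation test), which was 0.03 without hour 5. No neighbours in the order of the means passed, and the smallest adjusted p among them was 0.196, for CLN3 and CLB6 (exact permutation test). Probe sequences are not used here, so whether the spots tell duplicates apart was not tested.

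**Figure D3:**
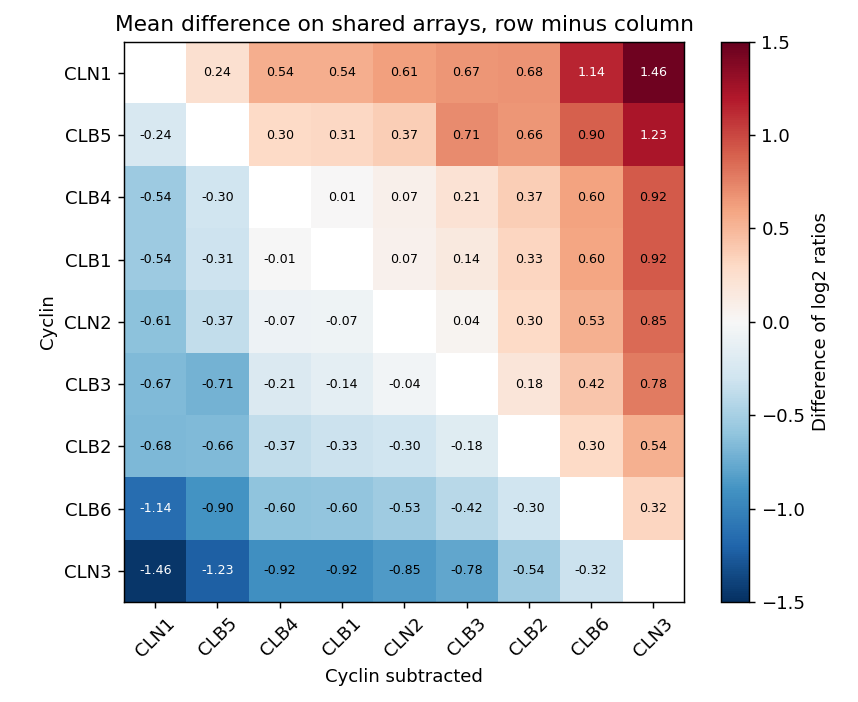
Mean difference of log2 ratios on shared arrays, row gene minus column gene, for the 36 pairs of cyclins ordered by their means, with red for higher and blue for lower in the row gene. The CLN3 row is negative throughout, down to -1.46 against CLN1, and neighbouring genes differ by little.

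Cyclins also differed in how much they varied over the hours. The SD over hours was 1.24 for CLB5 and 1.09 for CLN1, larger than in 91.1% and 85.9% of genes tested, beside a median SD of 0.62 over all genes. CLB1, CLB6 and CLN3 had SDs of 0.26, 0.35 and 0.38, at the 4.05, 12.9 and 16.4 percentiles. Steady and variable genes stood side by side in a class, as CLN3 and CLN1 did among the G1 cyclins and CLB6 and CLB5 among the S-phase cyclins. These SDs include any trend, and signal over background is unknown.

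**Figure D4:**
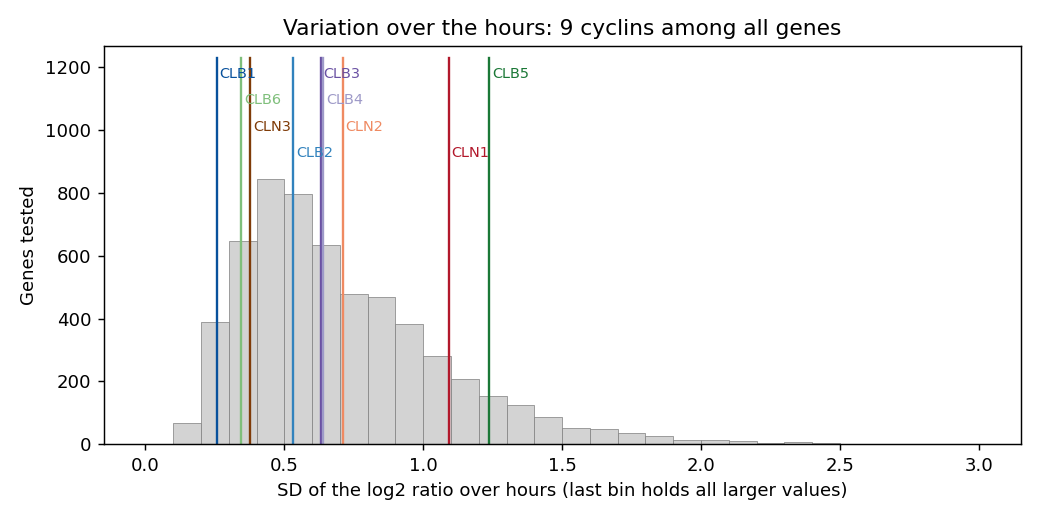
Number of genes (vertical axis) by the SD of their log2 ratio over the hours (horizontal axis) for all genes tested, with a line for each cyclin. CLB1, at 0.26, lies near the low end and CLN1 and CLB5, at 1.09 and 1.24, lie in the upper tail.

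No cyclin showed a change over time that passed. In limma 0 of 9 cyclins and 0% of all genes passed for a linear change, with 1 cyclin and 641 genes at an unadjusted p under 0.05, and 0 of 9 and 0% passed for a quadratic change, with 1 cyclin and 603 genes. The steepest slopes were those of CLN1, at 0.20 ± 0.09 log2 units per hour (SE, adjusted p = 0.45 in limma), and CLN2, at 0.15 ± 0.06 per hour (SE, adjusted p = 0.42 in limma), both upward. CLB4, CLB2, CLB3 and CLB6 had downward slopes from -0.09 to -0.04 per hour, none past the threshold. CLN3 had the smallest unadjusted p for curvature, with its low middle hours (adjusted p = 0.43 in limma). A difference between odd and even hours passed for 0 of 9 cyclins, beside 6.35% of all genes. At an unadjusted p under 0.05 in limma there were 0 cyclins and 1228 genes. The split by odd and even hours had been seen in the data before it was fitted, so these counts are descriptions. The largest estimates were 0.83 for CLB5 and 0.59 for CLB4, odd minus even, with adjusted p-values of 0.46 and 0.37 in limma.

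The genes whose log2 ratios lay closest to 1 cyclin of each class were found by the root mean square difference over the hours, among 4266 other genes with a standard symbol and all 10 values (4267 for CLB2). Nearest to CLN1 were DAL82, an activator of allantoin genes, AAC3, the ATP/ADP carrier of low oxygen, and ISW1, a chromatin remodeller, at 0.68, 0.69 and 0.72 over 10 hours. Nearest to CLB5 were MRPL40, a mitochondrial ribosomal protein, COQ9, a factor of ubiquinone synthesis, and TOF1, which protects replication forks, at 0.79, 0.85 and 0.87 over 10 hours. Nearest to CLB2 were TYW3, a tRNA-modifying enzyme, RSC8, a subunit of the RSC remodeller, and MCM4, a subunit of the replicative helicase, at 0.22, 0.29 and 0.32 over 9 hours. None of these was a cyclin. For CLN1 and CLB5 even the smallest difference exceeded 0.62, the median SD over hours of all genes, so nearest does not mean alike. The closest cyclin to CLN1 was CLN2, at 1.19, which ranked 823 among 5774 genes, and the closest to CLB2 was CLB6, at 0.57.

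The genes that control cyclins were counted beside the shares of all genes tested, 22.6% higher and 22.4% lower, or 38.8% higher and 15.3% lower on the deposited scale, where the median of all genes was 0.37. Counts near these shares show nothing particular to a list. List medians are over the fitted means of limma, which differ from the plain means given for single genes where hours are missing. Among 9 regulators of G1/S transcription 0 were higher and 2 lower, and the median log2 ratio was -0.07, beside a median of 0.08 for all genes tested. SWI4, the DNA-binding subunit of SBF, was at -1.58 ± 0.58 (n = 10) and below the array median on all arrays, and STB1, a cofactor of SBF and MBF, was at -0.63 ± 0.44 (n = 10). MBP1, the DNA-binding subunit of MBF, was at 0.55 ± 0.71 and did not pass (adjusted p = 0.073 in limma). On the deposited scale SWI4 stayed lower, MBP1 passed as higher and STB1 did not pass, with a list median of 0.22. Of 6 factors of mitotic transcription 5 had enough values, of which FKH1 was higher at 1.19 ± 1.09 (n = 10) and FKH2 lower at -1.12 ± 0.62 (n = 10). Both encode forkhead factors of the CLB2 gene cluster, and YHP1, a repressor of early cell cycle boxes, was at -0.54 ± 0.68 without passing (adjusted p = 0.070 in limma). The list median was -0.46, and -0.13 on the deposited scale.

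For Cdc28 itself the log2 ratio of CDC28 was -0.02 ± 0.93 (n = 10, adjusted p = 0.97 in limma). Among 8 genes for the kinase, its modifiers and its inhibitors 1 was higher and 2 lower, and the median was 0.11. MIH1, the phosphatase that activates Cdc28 at mitosis, was higher at 1.42 ± 0.74 (n = 10). SIC1, the inhibitor of Clb kinases, and FAR1, the inhibitor of Cln kinases, were lower at -0.46 ± 0.29 and -0.48 ± 0.40 (n = 10 each), but neither passed on the deposited scale (adjusted p = 0.19 and 0.21 in limma), where the list had 3 higher and 0 lower genes and a median of 0.40.

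Among 14 genes for ubiquitin ligases that destroy cyclins 3 were higher and 3 lower, and the median was 0.24. Without centring 6 were higher and 2 lower, and the median was 0.53. CDC53, the cullin of the SCF ligase for Cln proteins and Sic1, was at -1.75 ± 0.51 (n = 10). APC2, the cullin of the ligase that destroys Clb proteins, was at 1.31 ± 0.42 (n = 10), and CDC23, another of its subunits, was at -1.54 ± 0.93 (n = 10). The others past the threshold, named after their values were seen, were the subunits APC1 and CDC16, at 0.83 and 1.24, and the activator CDH1, at -0.84.

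The same counts were made for cyclins of other kinases. Of 10 cyclins of the kinase Pho85, 2 were higher and 1 lower, and the median was 0.20 (without centring 4 and 1, median 0.50). PCL5, a cyclin for turnover of the activator Gcn4, was at 1.57 ± 0.50 (n = 10) and PCL2, a G1 cyclin, at 0.53 ± 0.52 (n = 8), while PCL1, another G1 cyclin of Pho85, was at -1.07 ± 0.24 (n = 10). PCL5 lay above and PCL1 below the array median on every array. Among 4 cyclins of transcription kinases 1 was higher and 0 lower (2 and 0 on the deposited scale). It was CTK2, at 0.57 ± 0.64 (n = 10), beside CCL1 of transcription factor IIH at 0.57 ± 0.96 (n = 10) and SSN8 of the Mediator kinase at -0.13 ± 0.57 (n = 9), which did not pass (adjusted p = 0.14 and 0.52 in limma).

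Genes expressed at the same cell cycle stages as the cyclins were higher in some cases and lower in others, as were all genes (22.6% and 22.4%). Of 17 G1/S genes 5 were higher and 3 lower, and the median was 0.17 (without centring 7 and 2, median 0.50). POL1, the catalytic subunit of DNA polymerase alpha, was at 1.49 ± 0.48 (n = 10), while TOS4, a chromatin-binding target of SBF, and AXL2, a marker of the axial bud site, were at -1.56 ± 0.34 and -1.003 ± 0.268 (n = 10 each). The others past the threshold, named after their values were seen, were CDC21 at 0.89, SMC3 at 0.94, SVS1 at 0.66, GIC2 at 0.64 and RFA1 at -0.38. Of 14 G2/M genes 3 were higher and 5 lower, and the median was -0.12 (without centring 5 and 4, median 0.18). CHS2, the chitin synthase of the septum, was at -1.64 ± 0.35 and MYO1, the myosin of the contractile ring, at -1.37 ± 0.32 (n = 10 each), both below the array median on every array. HOF1 and DBF2, which act in cytokinesis and mitotic exit, were at -0.87 and -0.50, and the higher genes were the polo kinase CDC5 at 1.12, BUD4 at 1.22 and IQG1 at 0.95, all named after their values were seen. CLB1 and CLB2, the cyclins of this stage, lay at 0.33 and 0.0037.

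**Figure D5:**
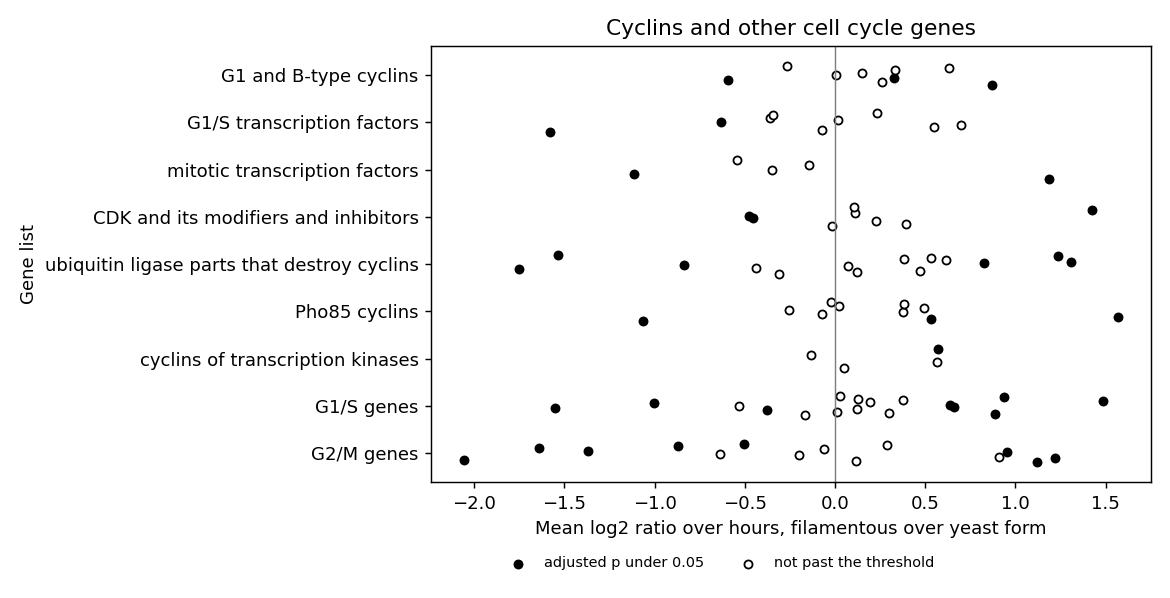
Mean log2 ratio over hours (horizontal axis) of each gene tested, by list (vertical axis), with filled points past the adjusted threshold of 0.05 in limma and open points not past it. The cyclins lie between -0.59 and 0.87, within the range of the G2/M and ubiquitin ligase genes.

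Markers of other cell states were counted beside the shares of all genes tested, 22.6% higher and 22.4% lower, or 38.8% and 15.3% without centring. Of 7 tested haploid genes 1 was higher and 3 were lower, and the median was -0.38 (without centring 2 and 1, median -0.07). MFA2 was at 0.79, AGA2 at -1.32, HO at -1.17 and STE3 at -0.55, and 2 of 9 listed genes had too few values. Among 8 meiosis genes 1 was higher and 1 lower, and the median was -0.20 (without centring 2 and 1, median 0.10). ZIP1 was at 1.65 and SPO11 at -0.91, while IME1, the inducer of meiosis, was at -0.62 without passing (adjusted p = 0.062 in limma). A ratio between growth forms gives no level of a marker, and the part of such cells in the cyclin values was not tested.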

How the data were processed

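Each array of the authors' deposited table has 1 log2 ratio for each open reading frame. The log base was read from the numbers: 97.3% of the ratios were whole ten-thousandths (within 0.02) with base 2, against 4.57% with base e and 4.79% with base 10. The sources used here do not give dyes, background correction, normalization or array design. Values within 1e-06 of 0 (3324 of 62920, 5.28%) were taken as missing, each array was centred on its median, and genes with at least 8 values were tested (5775). The fit used lmFit and eBayes of limma 3.58.1 (R 4.3.3), with orthogonal linear and quadratic terms in hour beside an intercept, two-sided tests, Benjamini-Hochberg adjustment over all genes and a threshold of 0.05. The difference between odd and even hours was an added term, fitted as a description since the split had been seen in the data. Pairs of cyclins were compared with all 1024 sign flips over 10 arrays (512 over 9). The limma code was tested on simulated data with independent arrays, which cannot give its error rate on the arrays here. Symbols came from the RefSeq assembly R64 (5792 names matched). The members and lists were chosen with earlier results of these data known. The text names all cyclins, up to 3 genes of each other list by adjusted p, and the 3 nearest genes to CLN1, CLB5 and CLB2. A named G2/M gene is not reported here. Alternatives covered scaling, zeros, filters, variance and time models, odd and even hours, single hours and thresholds. Leaving out hours 9 and 10 was added after the data were seen. Figures were drawn with matplotlib 3.10.9.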

Additional observations from a re-analysis of the deposited data

How the results depend on the processing

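The number of cyclins called higher was 2, but 5 on the deposited scale (CLN1, CLN2, CLB1, CLB4 and CLB5), where 38.8% of all genes were called higher, 0 at a threshold of 0.01, and 1 with arrays centred on the mean, with odd hours alone, with even hours alone, with adjacent hours averaged and without hours 9 and 10. It ran from 0 to 2 with single hours left out. The number called lower was 1, and that for a linear or quadratic change 0, under every alternative run that gives such a count. CLN3 kept its call in 27 of 27 alternatives, CLN1 in 23 of 27 and CLB1 in 13 of 27. The fitted mean of CLB2 was 0.0179 in the main fit (adjusted p = 0.94 in limma). It changed sign without passing, to -0.0269 with arrays centred on the mean, -0.0366 with array weights and -0.0002 with a linear term alone. With odd hours alone it was -0.0698, and with single hours left out it lay between -0.10 and 0.10. The fitted mean of CLB6 was 0.0282 on the deposited scale. Of the 36 pairs 9 passed at a threshold of 0.10, and 0 to 3 with single hours left out. CLB3 minus CLB4 was 0.29 with even hours alone and between -0.38 and 0.034 with single hours left out, above 0 only without hour 5. Fits on fewer hours rest on fewer arrays, and otherwise the cause of these changes was not tested. No paired analysis of replicates was possible because each hour had 1 array and the labels give no replicate numbers to use as a block. Pairing was within arrays only, between cyclins measured on the same array. Signal over background is unknown, since no spot intensities were analysed here.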

Other observations

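After the values were seen, the nearest pattern to each of the other cyclins was also looked up. Among all 9 cyclins the nearest gene lay on another chromosome for 6, on the same one for 3 and at most 10 genes away for 2, CLB6 and CLB4. The gene nearest to CLB6 was VOA1, which helps to assemble the vacuolar ATPase, at a root mean square difference of 0.13 over 10 hours, with the next gene at 0.26. VOA1 lies 2 protein-coding genes from CLB6 in the R64 table. The log2 ratio at hour 9, the lowest of CLB6 at -1.18, was -1.30 for VOA1. The gene nearest to CLB4 was MSS51, a translational activator in mitochondria, at 0.23, with the next at 0.40, and it lies 7 genes away. At hour 5, where CLB4 was at 1.76, MSS51 was at 1.41, and at hour 4, where CLB4 was at -0.45, it was at -0.71. Over all 4683 genes with all values and an entry in that table, the nearest pattern belonged to a gene at most 10 places away on the same chromosome for 195 genes, or 4.16%, beside 0.34% of other genes that lie that close, and 0 of these 195 were overlapping frames. Spot positions are not used here, and the cause was not tested. CLB2 and CLB5 are direct neighbours, as are CLB1 and CLB6. By the root mean square difference over shared hours, CLB2 and CLB5 differed by 1.58 and CLB1 and CLB6 by 0.780, both in log2 units.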
